A study of Rattus norvegicus with 12 samples.

Results

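The dystrophin complex and costamere genes described here are 9 rat genes, *Dmd*, *Dag1*, *Sgca*, *Sgcb*, *Sgcd*, *Cav3*, *Dysf*, *Itga7* and *Itgb1bp2*. Their probes were found by RefSeq accession, which gave 14 probes of 9 genes among 45598 probes and 16581 named genes on the array. L6, a line from rat skeletal muscle, grows as myoblasts that can be made to fuse into myotubes. After 6 days in differentiation medium, per the sample labels, myotubes received 60 µM GR24, 60 µM pinosylvin, 60 µM resveratrol or DMSO alone as the control. The published methods state another length of differentiation than the labels. Every compound was dissolved in DMSO, so all 4 groups carried the solvent, and RNA was taken after 24 h. Each group has 3 arrays of 1 colour, 12 in all, from 3 experiments on cells of the same batch. The p-values therefore measure the spread between these experiments. GR24 is a synthetic analog of the strigolactones, a class of plant hormones. Pinosylvin and resveratrol are plant stilbenes, and resveratrol carries an additional hydroxyl group. Of each array, 58.0% to 64.3% of 58717 spots were well above background, and the number of arrays limits the precision of every value.

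Dystrophin binds cytoskeletal actin at one end and the membrane protein dystroglycan at the other, and dystroglycan binds laminin in the basal lamina. The sarcoglycans, which lie in the same membrane, complete the link, and loss of dystrophin or of a sarcoglycan is known to cause muscular dystrophy. Costameres are the rows of such attachments that couple the outermost myofibrils to the membrane at the Z discs, and they hold an integrin system beside the dystrophin complex.

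The label of the cells as myotubes was checked against defining markers. Named probes were found for 11 of 13 myotube markers, and all 11 were well above background on every control array. Their summed signal, as multiples of the 75th percentile of the array, was 1027 ± 77.4 (SD, n = 3) in the control, 388 ± 9.53 with GR24, 1129 ± 32.5 with pinosylvin and 816 ± 15.4 with resveratrol, with the brightest probe that of *Myh3*. With GR24 9 of the 11 were lower and 0 higher at an adjusted p under 0.05 in limma, with 9 lower and 0 higher at an unadjusted p under 0.05, and *Myog*, the myogenic transcription factor, fell by 5.83 on the log2 scale. *Des* and *Chrna1* did not pass the test, and with the replicate block 10 of the 11 were lower. With pinosylvin 3 markers were higher and 1 lower, and with resveratrol 7 were lower and 0 higher in limma (9 and 0 at an unadjusted p under 0.05). The replicate block gave 5 higher and 2 lower with pinosylvin and 0 higher and 9 lower with resveratrol, and the shares of all genes at each of these thresholds stand with the gene lists below.

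For a probe to be tested, some group had to show it well above background on each of its 3 arrays, and 11 of the 14 member probes passed, with at least 1 for each gene. *Dmd* had 1 tested probe of 3, *Dysf* 1 of 2 and *Dag1* 3 of 3, and the other genes had a single probe. Where a gene had several probes, the brightest one by mean signal over all arrays stands for it. Values are log2 signal relative to the 75th percentile of the array, so that 0 is the level of that percentile, and a brighter probe does not mean a gene at a higher level.

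With GR24, 8 of the 9 genes were lower than in the control and 0 were higher at an adjusted p under 0.05 (limma, over 24279 probes). Of all probes tested, 25.5% were lower and 31.5% were higher. At an unadjusted p under 0.05 the numbers were again 8 and 0, beside 27.1% and 33.5% of all probes. The exception was *Sgcd*. The median log2 fold change of the 9 genes was -1.08, against 0.027 over all tested probes, and it was -1.05 with *Dmd* and *Dysf* set at the bounds given below. With pinosylvin 0 of the 9 genes passed the test in limma, where 8.28% of all probes were higher and 8.27% lower at an adjusted p under 0.05. At an unadjusted p under 0.05 the number of genes was also 0, beside 17.0% and 12.6% of all probes. With the experiment number as a replicate block, 2 of the 9 passed with pinosylvin, 1 higher and 1 lower, and so did 16.3% of all probes as higher and 12.3% as lower. With resveratrol 3 genes were lower, *Sgcd*, *Cav3* and *Itgb1bp2*, and 0 were higher, where 8.99% of all probes were lower and 7.99% higher. The unadjusted numbers with resveratrol were 5 lower and 1 higher, beside 14.1% and 15.2% of all probes. With the replicate block 4 were lower and 1 higher, beside 13.8% and 14.1%. All these comparisons share the control arrays. In bulk samples, fewer cells of a type and less RNA per cell cannot be told apart.

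**Figure D1:**
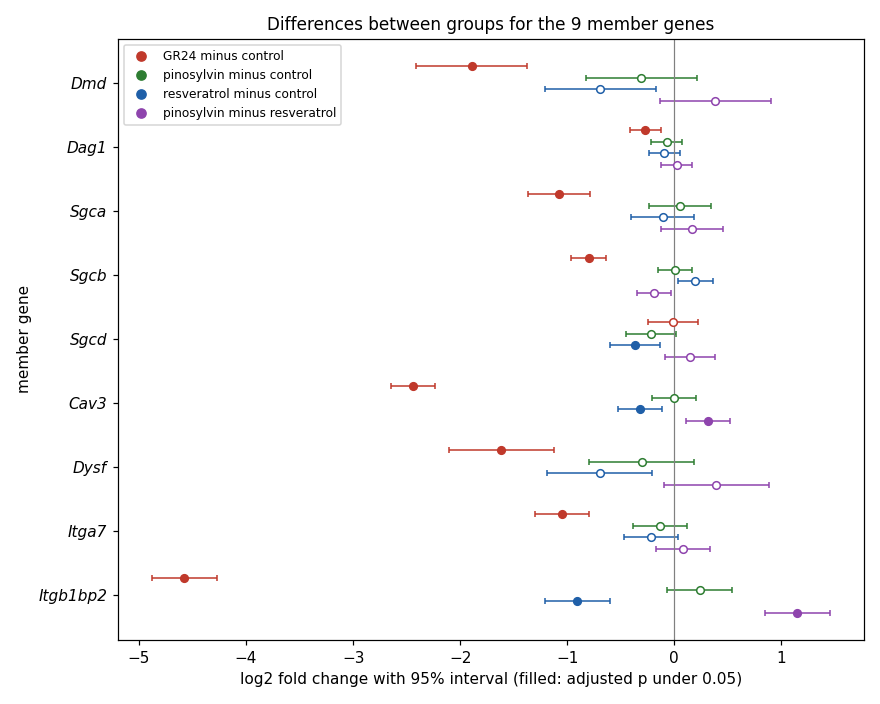
Log2 fold changes of the 9 genes (points) with 95% intervals (bars) on the x axis, for each compound minus the control and for pinosylvin minus resveratrol, with filled points where the adjusted p was under 0.05. The filled GR24 points lie left of 0 and belong to 8 genes, from -0.27 for *Dag1* to -4.58 for *Itgb1bp2*, and the fitted points of *Dmd* and *Dysf* rest on GR24 signals that were not well above background.

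*Dmd* encodes dystrophin itself. Its tested probe read -3.64, -4.003 and -3.97 on the control arrays, -5.52, -5.67 and -6.10 with GR24, -4.03, -4.32 and -4.19 with pinosylvin and -5.06, -4.55 and -4.08 with resveratrol. The GR24 arrays were the lowest of the 12, with no overlap with any other group, and the resveratrol arrays spread over the widest range. The probe was well above background on all 3 control and pinosylvin arrays, on 2 resveratrol arrays and on 0 GR24 arrays. The group means were -3.87 ± 0.20 (SD, n = 3) in the control and -5.77 ± 0.30 (SD, n = 3) with GR24, and the signal was at least 2.06-fold lower with GR24 (adjusted p = 4.79e-05). Such a bound sets the mean of the brighter group against the mean, in the dimmer group, of what each array shows at most: the probe's own signal or, if greater, the dimmest signal that still counted as well above background there. It holds for this background correction: with normexp and the 75th percentile the log2 fold change was -0.56 (adjusted p = 0.000249) and in the deposited series table -0.88 (adjusted p = 0.000376), smaller changes than the bound. A second *Dmd* probe, for another transcript accession, was well above background on 2 control arrays and 1 GR24 array, and the last on 0 arrays, and neither was tested. With pinosylvin the log2 fold change of the tested probe was -0.31 (adjusted p = 0.436, SE 0.23), and with resveratrol -0.69 (adjusted p = 0.0697, SE 0.23). The resveratrol value passed the threshold without resveratrol replicate 3 (-0.93, adjusted p = 0.0178), with normexp and the 75th percentile (-0.32, adjusted p = 0.0392) and on the first slide alone, and the adjusted p ranged over 0.0178 to 0.216 under all alternatives.

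*Dag1* encodes dystroglycan, the laminin receptor of the complex. Its brightest probe read 7.32, 7.46 and 7.26 on the control arrays, 7.06, 7.14 and 7.02 with GR24, 7.25, 7.29 and 7.29 with pinosylvin and 7.26, 7.25 and 7.24 with resveratrol. The GR24 arrays lay below all 9 other arrays, which overlapped with each other. The log2 fold change was -0.27 (adjusted p = 0.00452, SE 0.066) with GR24, the smallest among the 8 decreases. The other probes of *Dag1* were also lower but did not pass the test, with -0.17 (adjusted p = 0.216, SE 0.11) and -0.063 (adjusted p = 0.664, SE 0.11). With the mean over the 3 probes the call was lost (-0.17, adjusted p = 0.0743), as it was in the deposited series table (-0.097, adjusted p = 0.167), and the adjusted p ranged over 0.00146 to 0.167 under all alternatives.

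Of the sarcoglycans, which form a tight subcomplex in the muscle membrane, *Sgca* (alpha) and *Sgcb* (beta) fell with GR24 and *Sgcd* (delta) did not pass the test. *Sgca* read 5.30, 5.32 and 4.99 on the control arrays, 4.18, 4.14 and 4.05 with GR24, 5.44, 5.32 and 5.03 with pinosylvin and 5.17, 5.22 and 4.90 with resveratrol. Every GR24 array was below every other array, and the control, pinosylvin and resveratrol arrays overlapped. The log2 fold change with GR24 was -1.08 (adjusted p = 4.44e-05, SE 0.13), a 2.11-fold lower signal, with an interval of -1.37 to -0.79.

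*Sgcb* read 4.84, 4.86 and 4.74 on the control arrays, 4.06, 4.11 and 3.86 with GR24, 4.83, 4.77 and 4.84 with pinosylvin and 5.05, 4.99 and 4.98 with resveratrol. The GR24 arrays were again the lowest, and here the resveratrol arrays were the highest of the 12, above each control array. The log2 fold change was -0.80 (adjusted p = 5.70e-06, SE 0.073) with GR24 and 0.20 (adjusted p = 0.1, SE 0.073) with resveratrol. The resveratrol value passed the threshold under 5 of 26 alternatives. These were the replicate block (adjusted p = 0.0462), the slide as a block (0.0342) and the fit without GR24 replicate 3 (0.0490). The others were quantile normalization (0.0288) and the percentile over probes above background on all arrays (0.0487). The adjusted p ranged over 0.0288 to 0.267 under all alternatives.

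*Sgcd* read 1.12, 1.13 and 1.00 on the control arrays, 1.10, 1.24 and 0.87 with GR24, 0.92, 0.95 and 0.72 with pinosylvin and 0.73, 0.82 and 0.60 with resveratrol. The GR24 and control arrays overlapped, and the resveratrol arrays lay below both. The log2 fold change with GR24 was -0.014 (adjusted p = 0.929, SE 0.11), with a 95% interval of -0.25 to 0.22, and it was above 0 under 3 of 5 other scalings and background corrections, up to 0.091. With resveratrol it was -0.37 (adjusted p = 0.0378, SE 0.11). This call was lost without control replicate 1 (adjusted p = 0.110) or 2 (0.108), without replicate 1 of GR24 (0.0567) or pinosylvin (0.0527), and without resveratrol replicate 1 (0.0871), 2 (0.0519) or 3 (0.122). With pinosylvin it was -0.22 (adjusted p = 0.196, SE 0.11), and with the replicate block the pinosylvin value passed the threshold (adjusted p = 0.0164; slide as a block, 0.0175).

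**Figure D2:**
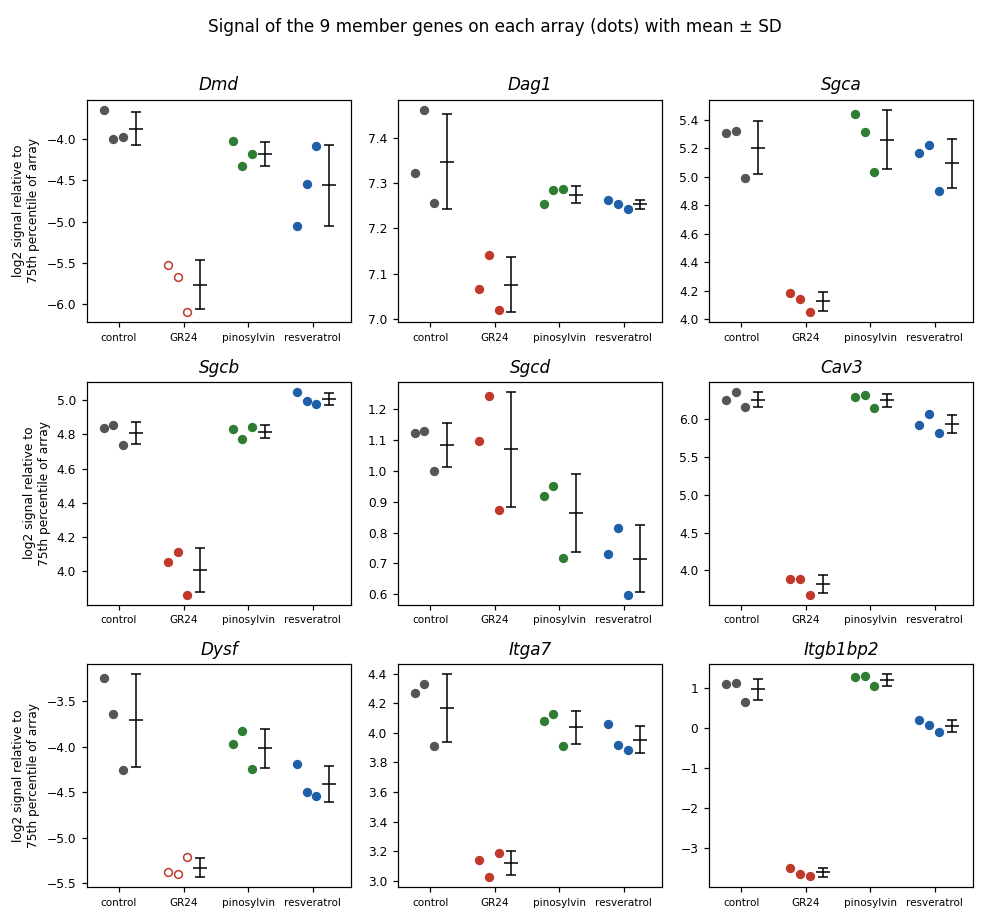
Log2 signal relative to the 75th percentile of the array (y axis, its own scale in each panel) for each of the 9 genes on each of 3 arrays per group (dots), with the mean and SD of the group beside them. Open dots mark groups with no array well above background. In 8 of the 9 panels the GR24 dots lie below all others. Of all tested probes, 25.5% were lower with GR24 than in the control at an adjusted p under 0.05 in limma. The share of all probes without overlap is not given here.

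*Cav3* encodes caveolin-3, the muscle caveolin, which forms caveolae and binds dystroglycan. It read 6.25, 6.36 and 6.16 on the control arrays, 3.88, 3.88 and 3.68 with GR24, 6.28, 6.31 and 6.14 with pinosylvin and 5.93, 6.06 and 5.81 with resveratrol. The GR24 arrays stood far below the rest, the pinosylvin and control arrays overlapped, and the resveratrol arrays lay just below both. With GR24 the signal was 5.42-fold lower, a log2 fold change of -2.44 (adjusted p = 8.71e-09, SE 0.092). With resveratrol it was -0.32 (adjusted p = 0.0390, SE 0.092), a decrease that lost its call under 10 of 26 alternatives, with log2 fold changes of -0.38 to -0.26 over all of them. The fits that lost it include those without replicate 1 of each group (adjusted p = 0.0935 without the control one, 0.0538 GR24, 0.0556 pinosylvin, 0.1 resveratrol), control replicate 2 (0.130), pinosylvin replicate 2 (0.0532) and resveratrol replicate 3 (0.128). With pinosylvin it was -0.0065 (adjusted p = 0.979, SE 0.092), with an interval of -0.21 to 0.20.

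*Dysf* encodes dysferlin, which acts in the resealing of the torn muscle membrane. Its tested probe read -3.25, -3.64 and -4.25 on the control arrays, -5.37, -5.40 and -5.21 with GR24, -3.97, -3.83 and -4.25 with pinosylvin and -4.19, -4.50 and -4.55 with resveratrol. All GR24 arrays were below the other 9, but none of them was well above background. The means were -3.71 ± 0.51 (SD, n = 3) in the control and -5.33 ± 0.10 (SD, n = 3) with GR24, and the signal was at least 2.29-fold lower with GR24 (adjusted p = 0.000104). With normexp and the 75th percentile the log2 fold change was -0.52 (adjusted p = 0.00544) and in the deposited series table -0.79 (adjusted p = 0.00440), again smaller than the bound. The control arrays spread widely, and that of replicate 3 lay at the level of the lowest pinosylvin array. With resveratrol the log2 fold change was -0.70 (adjusted p = 0.0553, SE 0.22). It passed the threshold with the replicate block (adjusted p = 0.0272), with the slide as a block (0.0217) and on the first slide alone (0.0148). It also passed with the percentile over probes above background on all arrays (0.0441) and without control replicate 3 (-0.97, adjusted p = 0.00423). The adjusted p ranged over 0.00423 to 0.244 under all alternatives. Without control replicate 3 the pinosylvin value also passed (-0.57, adjusted p = 0.0493, range 0.0493 to 0.882).

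The integrin members were *Itga7*, the laminin-binding integrin alpha 7 of muscle, and *Itgb1bp2*, which encodes melusin, a muscle protein that binds the cytoplasmic tail of integrin beta 1. *Itga7* read 4.27, 4.33 and 3.91 on the control arrays, 3.14, 3.03 and 3.19 with GR24, 4.08, 4.12 and 3.91 with pinosylvin and 4.06, 3.92 and 3.88 with resveratrol. The GR24 arrays were the lowest, and the control, pinosylvin and resveratrol arrays overlapped. The signal was 2.07-fold lower with GR24, a log2 fold change of -1.05 (adjusted p = 1.89e-05, SE 0.11). With pinosylvin it was -0.13 (95% interval -0.38 to 0.12) and with resveratrol -0.21 (95% interval -0.47 to 0.037), neither past the threshold. The resveratrol value passed without control replicate 3 (-0.35, adjusted p = 0.0319) and on the first slide alone (-0.31, adjusted p = 0.0446; range 0.0319 to 0.560).

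*Itgb1bp2* read 1.10, 1.14 and 0.66 on the control arrays, -3.49, -3.64 and -3.70 with GR24, 1.27, 1.30 and 1.04 with pinosylvin and 0.19, 0.087 and -0.11 with resveratrol. The GR24 arrays were low, the resveratrol arrays intermediate, and the control and pinosylvin arrays high, with overlap only between the latter groups. With GR24 the signal was 23.9-fold lower, a log2 fold change of -4.58 (adjusted p = 2.01e-09, SE 0.14), and all 3 GR24 arrays were well above background. The decrease was smaller with normexp, -3.67 (adjusted p = 1.99e-10) with the 75th percentile and -3.63 (adjusted p = 4.49e-10) with quantile normalization, and the adjusted p ranged over 2.60e-11 to 7.82e-06 under all alternatives. With resveratrol the log2 fold change was -0.91 (adjusted p = 0.00127, SE 0.14), which kept its call under all 26 alternatives run. With pinosylvin it was 0.24 (adjusted p = 0.285, SE 0.14), and the replicate block put it past the threshold (adjusted p = 0.0451; slide as a block, 0.0373).

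By group mean, the order from high to low was control, pinosylvin, resveratrol and GR24 for *Dmd*, *Dag1*, *Cav3*, *Dysf* and *Itga7*. It was pinosylvin, control, resveratrol and GR24 for *Sgca* and *Itgb1bp2*, and resveratrol, pinosylvin, control and GR24 for *Sgcb*. In these 8 genes GR24 passed the test against its neighbour in the order, a call lost for *Dag1* under 16 of 26 alternatives and for *Dysf* under 3 of 25. Control and pinosylvin did not pass against each other in the main fit. They passed for *Itgb1bp2* under 2 of 26 alternatives, the replicate block (adjusted p = 0.0451) and the slide as a block (0.0373). They also passed for *Dag1* under 2 of 26 and for *Dysf* under 1 of 25. Resveratrol passed against its higher neighbour for *Itgb1bp2* and, with the call lost under 13 of 26 alternatives, for *Cav3*. For *Sgcd* the order was control, GR24, pinosylvin and resveratrol, and no pair of neighbours passed the test in the main fit. GR24 and pinosylvin passed against each other under 5 of 26 alternatives, among them the replicate block (adjusted p = 0.00809).

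The arrays lay on 2 slides, with replicates 1 and 2 of every group on the first and replicate 3 on the other. The median log2 fold change of the 9 genes with GR24 was -1.22 within the first slide and -0.94 within the second, which holds 1 array per group and gives no test. With *Dmd* and *Dysf* at their bounds on each slide these medians were -1.15 and -0.87. The values of *Cav3* were -2.42 and -2.48, and those of *Itgb1bp2* -4.69 and -4.36. For *Sgcd* they were 0.043 and -0.13. With resveratrol *Itgb1bp2* had -0.98 and -0.77, *Cav3* -0.31 and -0.34 and *Sgcd* -0.35 and -0.40. The resveratrol value of *Dmd* was -0.98 on the first slide (adjusted p = 0.0270) and -0.11 on the second. With the slide as a block, the 8 decreases with GR24 kept their calls.

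The compounds were compared directly at their common dose and time. Pinosylvin and resveratrol, which differ by a hydroxyl group, differed in 2 of the 9 genes, both higher with pinosylvin, where 7.68% of all tested probes were higher and 6.85% lower. At an unadjusted p under 0.05, 2 genes were higher and 1, *Sgcb*, was lower, beside 15.1% and 12.8% of all probes. Beside the members, 9 of 11 myotube markers were higher with pinosylvin than with resveratrol and 0 lower in limma (10 and 0 at an unadjusted p under 0.05). The part of these markers in the differences of the members was not tested. *Itgb1bp2* had a log2 difference of 1.15 (adjusted p = 0.000405, SE 0.14), a 2.21-fold higher signal with pinosylvin, and each pinosylvin array lay above each resveratrol array. *Cav3* had 0.31 (adjusted p = 0.0475, SE 0.092), and this call was lost under 13 of 26 alternatives, with adjusted p over 0.00217 to 0.175. The fits that lost it include those without control replicate 1 (adjusted p = 0.0684), GR24 replicate 1 (0.0655) or 2 (0.0595), pinosylvin replicate 1 (0.125) or 2 (0.153), and resveratrol replicate 1 (0.108) or 3 (0.156). For the other 7 genes the difference did not pass the test, and a p that misses the threshold does not show that the compounds act alike. The 95% interval of the difference was -0.12 to 0.46 for *Sgca*, -0.12 to 0.17 for *Dag1* and -0.17 to 0.34 for *Itga7*. It was wider for the dim probes, -0.13 to 0.90 for *Dmd* and -0.096 to 0.88 for *Dysf*. For *Sgcd* it was -0.088 to 0.38. For *Sgcb* the difference was -0.19 (adjusted p = 0.118, SE 0.073), with an interval of -0.35 to -0.027, and it passed the threshold with the slide as a block (adjusted p = 0.0404) but not with the replicate block (adjusted p = 0.0537). It passed under 5 of 26 alternatives in all, the others being quantile normalization (0.0144), normexp with quantile normalization (0.0198), the deposited series table (0.0390) and the percentile over probes above background on all arrays (0.0417), with a range of 0.0144 to 0.293.

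Against pinosylvin, GR24 gave a lower signal in 8 of the 9 genes and a higher one in 0, where 26.8% of all probes were lower and 29.6% higher, and the unadjusted numbers were the same (beside 28.9% and 31.6%). Against resveratrol, 8 were lower and 1, *Sgcd*, was higher, where 23.9% of all probes were lower and 27.4% higher. Beside them, 11 of 11 myotube markers were lower than with pinosylvin and 9 of 11 lower than with resveratrol in limma. Of 8 fibroblast markers 8 and 5 were lower, and of 3 macrophage markers 2 and 2 were higher. Of 8 undifferentiated myoblast markers 4 and 3 were lower and 2 and 1 higher. Of all named genes, 27.1% and 25.1% were lower and 34.7% and 31.6% higher. The part of these markers in the differences of the members was not tested. *Itgb1bp2* was 28.2-fold lower with GR24 than with pinosylvin (log2 difference -4.82, adjusted p = 1.81e-09) and 12.7-fold lower than with resveratrol (adjusted p = 1.77e-08). With normexp and the 75th percentile these log2 differences were -3.91 (adjusted p = 1.80e-10) and -2.81 (adjusted p = 4.07e-09), with ranges of 2.18e-11 to 6.03e-06 and 3.46e-10 to 1.24e-05 for the adjusted p under all alternatives. *Cav3* was 5.39-fold lower than with pinosylvin (adjusted p = 1.27e-08) and 4.34-fold lower than with resveratrol (adjusted p = 4.57e-08). For *Dmd* the bounds were at least 1.66-fold and at least 1.27-fold, and for *Dysf* at least 1.86-fold and at least 1.42-fold, again for this background correction only. The *Dysf* difference from resveratrol lost its call with normexp before either normalization and in the deposited series table.

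*Sgcd* went the other way in these direct comparisons. Against the control in limma, its log2 fold change was -0.014 (adjusted p = 0.929) with GR24 and -0.37 (adjusted p = 0.0378) with resveratrol. *Sgcd* was higher with GR24 than with resveratrol, with a log2 difference of 0.35 (adjusted p = 0.0165, SE 0.11) and no overlap between the arrays. This call was lost without GR24 replicate 1 (adjusted p = 0.0501) or 2 (0.0680) and without resveratrol replicate 3 (0.0653). Against pinosylvin the difference was 0.21 (adjusted p = 0.122, SE 0.11). It passed the threshold with the replicate block (adjusted p = 0.00809), with the slide as a block (0.00911) and without GR24 replicate 3 (0.0257). It also passed on the first slide alone (0.0323) and with the percentile over probes above background on all arrays (0.0426), with a range of 0.00809 to 0.390. The smallest decreases were those of *Dag1*, -0.20 against pinosylvin and -0.18 against resveratrol. Its value against pinosylvin lost its call under 10 of 26 alternatives, with a change of sign under 3 of them. Among the 10 were the fits without GR24 replicate 1 (adjusted p = 0.0657) or 3 (0.0696) and pinosylvin replicate 2 (0.0635) or 3 (0.0574). Against resveratrol the call was lost under 16 of 26, among them 9 of the 12 with an array left out, all but control replicates 2 and 3 and GR24 replicate 2, with adjusted p over 0.0166 to 0.882.

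Of all 10741 named genes with a tested probe, 36.1% were higher and 26.7% lower with GR24, 8.59% and 9.77% with pinosylvin, and 8.63% and 10.3% with resveratrol, and the counts of the lists stand beside these shares. At an unadjusted p under 0.05 they were, in the same order, 38.0% and 28.2%, 17.3% and 14.9%, and 16.4% and 15.6%. In the fit with the replicate block they were 41.1% and 30.7%, 17.1% and 14.3%, and 15.8% and 15.4%. A wider list of 18 genes of the dystrophin complex held 11 genes with a tested probe, of which 8 were lower with GR24, 1 higher and 2 not past the test, with a median log2 fold change of -0.80. With no filter on dim probes 15 genes were tested, 7 were lower and 1 higher, and the median was -0.27. In that fit 5819 of 45598 probes were lower and 7020 higher, and their median was 0.119. Besides the members, 6 genes were tested, 4 of them lower and 1 higher, and not all of them are named here. *Sntb1*, a syntrophin, had -1.16 (adjusted p = 2.27e-05, SE 0.13), and *Sspn* (sarcospan, which binds the sarcoglycans) -1.15 (adjusted p = 5.50e-07, SE 0.077). *Utrn*, the gene of utrophin, the close relative of dystrophin, had -0.42 (adjusted p = 0.0201, SE 0.13). *Sntb2*, another syntrophin adaptor, rose, with 1.47 (adjusted p = 1.26e-06, SE 0.11). Of the others, *Nos1*, *Sgce* and *Sntg2* were well above background on 0 arrays, *Sgcz* on some arrays of every group but on all 3 of none, and *Sntg1*, *Dtna* and *Dtnb* were not named on the array. With pinosylvin 1 of the 11 was higher, *Sntb1* with 0.44 (adjusted p = 0.0415), and 0 lower in limma, with 1 lower at an unadjusted p under 0.05. With resveratrol *Sspn* was higher (0.34, adjusted p = 0.0135), and *Sgcd* and *Utrn* (-0.44, adjusted p = 0.0475) were lower. With the replicate block the list had 1 higher and 8 lower with GR24, 1 higher and 2 lower with pinosylvin, and 2 higher and 2 lower with resveratrol.

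Dystroglycan binds laminin through sugars added by a set of enzymes in the endoplasmic reticulum and Golgi, and all 18 genes listed for them were tested. With GR24 8 were higher and 5 lower, not far from the shares over all genes, with a median of 0.14. *Dpm1* and *Pomgnt2* were among the largest increases (0.86 for *Pomgnt2*, adjusted p = 4.14e-05, and at least 1.45-fold for *Dpm1*, which was well above background on 0 control and 2 GR24 arrays). *B3galnt2* (-1.20, adjusted p = 6.87e-06) was the largest decrease. With pinosylvin 1 was higher and 0 lower in limma (8 and 2 at an unadjusted p under 0.05), and with resveratrol 2 were higher and 1 lower. With the replicate block the list had 9 higher and 6 lower with GR24, 6 higher and 2 lower with pinosylvin, and 4 higher and 1 lower with resveratrol. Of 8 tested laminin and basal lamina genes, 5 were lower and 1 higher with GR24, with a median of -0.41, with *Nid2* (-1.02, adjusted p = 7.98e-07) among the decreases and *Lamc1*, a laminin chain, higher (0.38, adjusted p = 0.00618). With pinosylvin 0 of the 8 passed in limma, with 1 higher and 1 lower at an unadjusted p under 0.05, and with resveratrol 1 was lower. The replicate block gave 2 higher and 5 lower with GR24, 2 higher and 1 lower with pinosylvin, and 0 higher and 2 lower with resveratrol.

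In the integrin system of the costamere, 14 of 22 tested genes were lower and 2 higher with GR24, with a median of -0.74. After *Itgb1bp2*, the largest decreases were *Sorbs2* (-2.77, adjusted p = 9.02e-09) and *Lims2* (-2.52, adjusted p = 1.87e-07), and *Sorbs3* (0.46) and the kinase gene *Src* (0.39) were higher. With pinosylvin 2 were higher and 2 lower, and with resveratrol 1 was higher and 4 lower. *Itga1*, another integrin alpha chain, was among the decreases with both stilbenes (-0.44 and -0.36). With the replicate block the list had 5 higher and 15 lower with GR24, 5 higher and 4 lower with pinosylvin, and 3 higher and 8 lower with resveratrol. Of 18 tested genes of the costamere cytoskeleton, 11 were lower and 2 higher with GR24, with a median of -0.66. *Ldb3*, a Z-disc protein gene, had -2.88 (adjusted p = 8.90e-10), and *Krt8*, a keratin gene, rose (1.08, adjusted p = 2.86e-06). With pinosylvin 3 were higher and 0 lower in limma (6 and 3 at an unadjusted p under 0.05), and with resveratrol 1 was higher and 4 lower. *Csrp3*, the gene of muscle LIM protein, moved in opposite directions with the stilbenes, with 0.65 with pinosylvin and -1.03 with resveratrol, and the difference between them was 1.68 (adjusted p = 2.32e-05, SE 0.12). The replicate block gave this list 2 higher and 12 lower with GR24, 6 higher and 2 lower with pinosylvin, and 1 higher and 6 lower with resveratrol.

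Among 24 tested genes of membrane repair and caveolae, 12 were lower and 2 higher with GR24, with a median of -0.31. *Trim72*, which encodes the repair protein mitsugumin 53, was not well above background on any GR24 array and was at least 7.52-fold lower (adjusted p = 3.16e-07), and *Cavin2* had -2.31. *Anxa7*, an annexin gene, rose (1.12, adjusted p = 2.17e-06). Of the 24, 9 were lower with pinosylvin (median -0.25) and 11 with resveratrol (median -0.32), and 0 were higher with either in limma (3 and 1 at an unadjusted p under 0.05), where the medians over all tested probes were 0.054 and 0.010. With the replicate block the list had 2 higher and 16 lower with GR24, 1 higher and 13 lower with pinosylvin, and 1 higher and 15 lower with resveratrol. *Cav1*, the caveolin of most cell types, had -0.71 (adjusted p = 5.35e-05, SE 0.067) with pinosylvin and -0.87 (adjusted p = 2.37e-05, SE 0.067) with resveratrol, beside -0.47 with GR24. *Cav2* had -0.78 and -0.69. *Cav3* had -0.0065 and -0.32. With *Dmd*, *Dysf* and *Trim72* at their bounds, the medians of the dystrophin complex and membrane repair lists with GR24 were -0.80 and -0.31, as without the bounds. No median with GR24 of these 6 lists changed sign under the 5 other scalings and background corrections run, under which the median over all probes was 0.0095 to 0.083. Their size did change, with -0.795 to -0.508 for the dystrophin complex list and -0.425 to -0.237 for the laminin and basal lamina list.

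Markers of other cells were measured beside the members. Of 8 tested genes of undifferentiated myoblasts, *Cdh15* (-1.71), *Vim* (-0.91) and *Myf5* (-0.88) were lower with GR24 and *Hes1* (0.65) and *Id2* (1.22) higher. With pinosylvin 1 was higher and 3 were lower, and with resveratrol 1 and 2. The replicate block gave 2 higher and 4 lower with GR24, 1 higher and 4 lower with pinosylvin, and 1 higher and 2 lower with resveratrol. The summed signal of the list, where the brightest probe was that of *Vim*, was 192 ± 9.02 (SD, n = 3) in the control, 105 ± 5.77 with GR24, 144 ± 5.84 with pinosylvin and 131 ± 5.88 with resveratrol. Of 8 tested fibroblast markers 7 were lower and 1 higher with GR24, and the sum, where the brightest probe was that of *Col1a2*, was 504 ± 23.1 in the control, 294 ± 8.86 with GR24, 483 ± 17.2 with pinosylvin and 437 ± 8.31 with resveratrol. With pinosylvin 3 fibroblast markers were higher and 2 lower, and with resveratrol 1 and 2, or 1 higher and 3 lower with the replicate block. Of 3 tested macrophage markers, *Cd68* (2.67, adjusted p = 4.11e-07) and *Cd14* (1.80, adjusted p = 3.27e-07) were higher with GR24, while *Ptprc*, the pan-leukocyte marker, was well above background on 0 arrays. The sum was 1.16 ± 0.0658 in the control, 4.04 ± 0.283 with GR24, 1.06 ± 0.0982 with pinosylvin and 1.23 ± 0.0523 with resveratrol, with the brightest probe that of *Cd14*. Of 3 tested endothelial markers 0 passed the test in limma with GR24, 1 was lower at an unadjusted p under 0.05, and 1 was lower with the replicate block and with the slide as a block. With resveratrol 0 passed in limma, 0 at an unadjusted p under 0.05, and 1 was lower with the replicate block. The sum of this list, where the brightest probe was that of *Vwf*, was 4.81 ± 0.386 in the control, 4.93 ± 0.735 with GR24, 4.83 ± 0.268 with pinosylvin and 4.81 ± 0.603 with resveratrol. None of 4 adipocyte markers on the array had a tested probe, and 3 of them were well above background on 0 arrays. The part of these markers in the decreases of the members was not tested.

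The genes most like each member were taken by Pearson's r over the 12 arrays among 10736 other named genes, as a description with no test, and all 12 arrays fall into the same 4 groups. For *Itgb1bp2* these were *Dlk2* (0.999), *Anxa10* (0.999) and *Crabp2* (0.998). For *Cav3* they were *Csrp2*, *N4bp3* and *Mybph*, each at 0.998, the last a myosin-binding protein gene of muscle. For *Sgca* they were *Pigq* (0.995), *Arhgef19* (0.995) and *Ak3* (0.993), and for *Itga7* *Kcnk6* (0.995), *Fgfr1* (0.990) and *Patj* (0.989). *Sgcb* was nearest to *Jdp2* (0.992), *Ppm1l* (0.990) and *Wfdc1* (0.988). *Sgcd*, the member that did not pass the test with GR24, was nearest to *Stt3b* (0.969), *Nme2* (0.947) and *Emp3* (0.929). *Dag1* was nearest to *Necap2* (0.952), *Calm3* (0.952) and *Atp5mf*. The dim probe of *Dmd* was nearest to *Cd276* (0.961), *Septin9* and *Cd2* (each 0.960), and that of *Dysf* to *Ltbp4* (0.976), *Klf2* (0.974) and *Inhbb* (0.968).

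The promoters of the members were searched for motifs, as a description with no test. RefSeq promoter entries of the rat assembly GRCr8, each of 300 bases with 250 before the gene start, were found for 7 of the 9 genes, with 9 entries in all, 3 of them for *Dmd*, and *Dag1* and *Itga7* had none. Both strands were searched for the E-box CANNTG, in 24131 of 33469 promoters of the table (72.1%), and for CAGCTG, an E-box form that myogenic factors bind, in 15.1%. CAGCTG is a case of CANNTG, so these matches overlap. The MEF2 site was in 3.29%, the CArG box in 1.64%, the MCAT element CATTCC in 14.2% and the antioxidant response element TGACNNNGC in 12.1%. Of the 9 member entries, CANNTG was in 5, CAGCTG in 3, and each of the others in 1. The window of *Cav3* (chr4:147137743-147138042, plus strand) held CAGCTG at position -13 from the start, a MEF2 site at -78 and CATTCC on the opposite strand at -157. The window of *Itgb1bp2* (chrX:70612271-70612570, plus strand) held CAGCTG at -48 and the antioxidant response element letters on the opposite strand at 42. The window of *Sgca* (chr10:80416026-80416325, minus strand) held CAGCTG at -61 and a further CANNTG at -143. The window of *Sgcd* (chr10:32254891-32255190, minus strand) held CANNTG at -46 in the form CACGTG and none of the other motifs. Of the remaining entries, 1 of *Dmd* held a CArG box and CANNTG, and those of *Sgcb* and *Dysf* held none. A match describes these letters only. *Dmd*, *Sgcb* and *Dysf* also fell with GR24, and their entries held no CAGCTG. The sequences below run 5′ to 3′, with the matches in capitals. They are shown for the members with CAGCTG, *Cav3*, *Itgb1bp2* and *Sgca*, and for *Sgcd*.
Cav3: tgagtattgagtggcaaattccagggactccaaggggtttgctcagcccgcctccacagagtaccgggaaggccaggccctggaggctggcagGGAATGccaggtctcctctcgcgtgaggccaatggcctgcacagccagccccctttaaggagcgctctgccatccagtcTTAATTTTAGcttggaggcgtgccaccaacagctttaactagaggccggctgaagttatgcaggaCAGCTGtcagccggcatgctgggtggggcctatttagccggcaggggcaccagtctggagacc
Itgb1bp2: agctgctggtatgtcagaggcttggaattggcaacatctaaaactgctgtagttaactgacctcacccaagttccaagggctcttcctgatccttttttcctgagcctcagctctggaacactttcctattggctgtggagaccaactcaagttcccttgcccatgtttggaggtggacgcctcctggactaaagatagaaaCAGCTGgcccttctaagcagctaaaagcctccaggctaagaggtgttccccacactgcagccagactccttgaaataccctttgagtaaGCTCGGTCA
Sgca: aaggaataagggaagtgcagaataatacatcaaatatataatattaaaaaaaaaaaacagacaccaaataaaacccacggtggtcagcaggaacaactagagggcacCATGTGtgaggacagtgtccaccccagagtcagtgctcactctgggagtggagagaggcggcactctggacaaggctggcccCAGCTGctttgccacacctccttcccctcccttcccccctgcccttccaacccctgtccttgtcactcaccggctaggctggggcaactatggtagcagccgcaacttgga
Sgcd: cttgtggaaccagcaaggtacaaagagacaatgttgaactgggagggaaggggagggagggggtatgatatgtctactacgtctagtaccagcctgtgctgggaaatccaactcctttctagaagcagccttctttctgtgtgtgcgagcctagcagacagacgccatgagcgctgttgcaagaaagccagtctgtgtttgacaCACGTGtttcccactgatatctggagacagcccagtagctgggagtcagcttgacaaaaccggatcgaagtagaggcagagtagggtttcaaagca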

How the data were processed

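Total RNA of 12 samples of rat L6 myotubes, 3 per group, was hybridised to Agilent arrays of 1 colour (Cy3). Per array, the authors deposited scanner output made with Agilent Feature Extraction 12.0.0.7. Its processed signal is an intensity from which the background was subtracted within the array before it was deposited, with no normalization between arrays. The deposited series table holds log2 values of 25848 probes, with column medians of 9.21 to 9.25. Each column correlated at 0.999 or above with the log2 median signals of the same array, and its background correction and filter are not given in the sources used here.

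Values are log2 processed signals from which the array's 75th percentile over all probes was subtracted. Control spots and spots marked as outliers were dropped, and a probe's remaining spots averaged. No spot was saturated (0 of 58717 on each array). All 12 arrays entered 1 fit with limma 3.58.1 in R 4.3.3, with a mean per group, eBayes and Benjamini-Hochberg adjustment over the 24279 tested probes, since the methods name this test and threshold (0.05). Intervals cover 95%. The fit was tested on simulated data. A GRCr8 gene table was searched for each RefSeq accession with its version removed, used for names only, which named 21109 of 45598 probes (46.3%).

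The members and the gene lists were chosen with earlier results of these data known. Named genes are the members, genes of the dystrophin complex list (not all of them), cell markers, up to 3 called genes with the largest increase and 3 with the largest decrease per list and control comparison, and the 3 genes most like each member. Replicate numbers come from the labels. Deviations from the group means over all tested probes correlated at 0.191 to 0.744 between samples of the same number, above 0.1 in every pair. Replicate 3 of every group lay alone on the second slide, and samples of different numbers were not compared. These correlations therefore cannot tell a shared experiment from a shared slide. Over the 9 members alone the correlations were -0.826 to 0.718, below 0 in 9 of 18 pairs. Alternatives were quantile normalization, normexp (offset 50) with either normalization, the deposited table, no filter, a filter asking for signal well above background on every array, the percentile over such probes, fits to the 6 arrays of a comparison, a block for the replicate number or for the slide, 1 slide alone, eBayes with trend and robust settings, the mean over probes of a gene, outlier spots kept, and each array left out.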

Additional observations from a re-analysis of the deposited data

How the results depend on the processing

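The number of members past the threshold with GR24 against the control was 8 with any 1 array left out, and 6 to 8 under the other 14 alternatives, 6 where the filter removed the dim probes of *Dmd* and *Dysf*. Of all probes, 13854 passed in the main fit, 12557 to 13939 with an array left out, and 12621 to 16164 under 13 of the others. For 54 member fold changes (9 genes in 6 comparisons) under the alternatives with a test, 1292 of 1392 values kept direction and side of the threshold or stayed uncalled, 65 lost the call and 32 gained it. The log2 fold change of *Dag1* between GR24 and pinosylvin reversed to 0.016 with quantile normalization, 0.035 with normexp and quantile normalization and 0.044 in the deposited table, and the cause was not tested.

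With pinosylvin against the control 1 member, *Dag1*, passed with quantile normalization and 1, again *Dag1*, with normexp and quantile normalization, and 4019 probes became 2409 with no filter, where more probes were tested, and 2479 with only the 6 arrays compared. With the replicate block 2 members and 6947 probes passed, and with the slide as a block 2 and 7074. Against resveratrol as the other stilbene, 3528 probes became 1975 with no filter, 6323 with the replicate block and 6443 with the slide as a block. Members there numbered 1 with normexp and the 75th percentile, with no filter, with the 6 arrays compared and on the first slide alone.

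With resveratrol against the control 1 member passed with no filter (2680 probes against 4123), 5 with the percentile over probes above background on all arrays, 5 with the replicate block (6769 probes), 5 with the slide as a block (6869 probes) and 6 on the first slide alone. The *Sgcd* call was lost under 11 of 26 alternatives. Among the members, calls other than those given beside the results did not change with the replicate block.

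With each array left out in turn, members past the threshold were 0 to 1 with pinosylvin (1 without control replicate 3, for *Dysf*), 1 to 5 with resveratrol and 1 to 2 between the stilbenes, and probes were 2808 to 4092, 2872 to 4310 and 2148 to 3683, the last lowered to 2148 without pinosylvin replicate 2, 2237 without resveratrol replicate 2 and 2311 without resveratrol replicate 3. For resveratrol the number was 1 without control replicate 1 or 2 or without replicate 1 of GR24, pinosylvin or resveratrol, and 5 without control replicate 3. Between the stilbenes it was 1 without control replicate 1, GR24 replicate 1 or 2, pinosylvin replicate 1 or 2, or resveratrol replicate 1 or 3. *Dmd* and *Dysf* lie near background, which limits the size of their changes.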
